A study of Mus musculus with 8 samples.

Results

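Notch signalling, by which neighbouring cells set each other's fate, was followed in the mouse intestine through 9 genes. They are the ligands Dll1, Dll4, Jag1 and Jag2, the receptors Notch1 and Notch2, the target Hes1 and the fate factors Atoh1 and Neurog3. They were taken by symbol, and each had 1 row among the 32285 genes that the 8 matrices share. All 9 are protein-coding genes. RefSeq places them on GRCm38.p6 at chr17:15367354-15376932 (Dll1), chr2:119325784-119335666 (Dll4), chr2:137081451-137116520 (Jag1), chr12:112907803-112929812 (Jag2), chr2:26457902-26503822 (Notch1), chr3:98013538-98150367 (Notch2), chr16:30065357-30067796 (Hes1), chr6:64729125-64731245 (Atoh1) and chr10:62133090-62134763 (Neurog3).

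All libraries came from the C57BL/6 strain. Passage 1 organoids, epithelial cultures grown from small intestinal crypts, were kept alone (control) or in coculture with a partner that the labels do not name; 16 wells of each were pooled and 100000 epithelial cells sorted from each pool. Small and large intestinal tissue gave 1 single-cell library each, from live cells sorted so that LGR5+ stem cells and CD31+ PDPN+ LYVE1+ lymphatic endothelial cells were enriched; the mice were C57BL/6 and Lgr5-eGFP-ires-CreERT2, in which the Lgr5 locus drives GFP and an inducible Cre, and the labels do not say which mice gave which cells. Visium, which captures RNA on spots of a slide, was run on 10 µm cryosections, 2 technical duplicates per tissue. Each organoid condition and each sorted tissue is a single library, so a difference has no replicate check and no test was made. Every interval is a 95% interval for counting error alone.

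In the intestinal epithelium, cells that carry Notch ligands activate the receptors of adjacent crypt cells. The cleaved receptor joins the DNA-binding protein RBPJ and raises Hes1, a repressor of Atoh1, and the receiving cell remains a stem cell or becomes absorptive. A cell that keeps Atoh1 enters the secretory lineage, and a short pulse of Neurog3 starts its enteroendocrine branch. In endothelium, Dll4 and Notch1 are known for vessel sprouting and arterial identity.

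Promoter sequence is shown for Dll1 and Dll4, the ligands that were both higher in goblet-gated than in stem-gated cells, and for the fate factors Atoh1 and Neurog3, whose proteins and whose repressor bind the motifs searched. Each window is the stretch of 250 bases before a RefSeq start on GRCm38.p6, written 5′ to 3′ on the strand of the gene. Capitals mark matches on either strand to the E-box CAGNTG, bound by factors of the Atoh1 and Neurog3 kind, to the RBPJ motif TGGGAA or to the N-box CACNAG of HES repressors.
Dll1, chr17:15376933-15377182, minus strand: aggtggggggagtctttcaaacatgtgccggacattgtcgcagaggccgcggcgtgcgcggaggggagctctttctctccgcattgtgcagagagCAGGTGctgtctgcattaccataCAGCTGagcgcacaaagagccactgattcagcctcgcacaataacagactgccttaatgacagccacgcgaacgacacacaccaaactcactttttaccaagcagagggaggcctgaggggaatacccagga
Dll4, chr2:119325534-119325783, plus strand: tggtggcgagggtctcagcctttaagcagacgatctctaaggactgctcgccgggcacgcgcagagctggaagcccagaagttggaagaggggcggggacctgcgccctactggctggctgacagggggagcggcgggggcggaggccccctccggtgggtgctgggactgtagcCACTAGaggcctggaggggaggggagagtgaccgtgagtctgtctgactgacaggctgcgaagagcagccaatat
Atoh1, chr6:64728875-64729124, plus strand: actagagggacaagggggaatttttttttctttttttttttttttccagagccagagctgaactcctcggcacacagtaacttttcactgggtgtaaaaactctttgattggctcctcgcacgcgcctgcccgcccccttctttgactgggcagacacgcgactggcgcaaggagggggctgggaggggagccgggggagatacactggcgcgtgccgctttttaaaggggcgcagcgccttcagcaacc
Neurog3, chr10:62132840-62133089, plus strand: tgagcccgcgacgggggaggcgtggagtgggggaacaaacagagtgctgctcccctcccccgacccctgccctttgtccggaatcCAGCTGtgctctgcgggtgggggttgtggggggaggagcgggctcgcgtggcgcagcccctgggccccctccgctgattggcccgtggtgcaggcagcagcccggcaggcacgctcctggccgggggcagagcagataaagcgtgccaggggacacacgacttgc
RefSeq gives 2 starts for Dll1, and the upstream one is printed because it holds matches; the window of the other, chr17:15375824-15376073, held none. The printed Dll1 window held 2 E-box matches, that of Neurog3 held 1, that of Dll4 held 1 N-box match, and that of Atoh1 held none of the motifs. Such matches are common: 44.8% of 32851 windows of this length held an E-box, 36.7% an N-box and 21.6% the RBPJ motif. Among the windows not printed, Jag1 had 1 E-box match and Notch1 and Notch2 had 1 N-box match each. A match is a description of these letters only.

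After filtering, the control and coculture libraries held 538 and 1028 cells, the small and large intestinal libraries 2695 and 5882 cells, and the sections 2094 to 2571 spots. Median depth was 73663.5 and 86295 unique molecular identifiers (UMIs, captured RNA molecules) per organoid cell, 11810 and 21761 per tissue cell and 9039 to 19822 per spot. More than 20% of UMIs were mitochondrial in 5497 of 8842 small and 2060 of 8646 large intestinal barcodes, which were left out. No barcode occurred in both organoid libraries, and 25 occurred in both tissue libraries. Levels are UMIs of a gene scaled to 1e+06 UMIs of the class or library (CPM), and ratios of levels are on the log2 scale, each with its interval after it. Cells were placed in classes one by one by marker lists, so that a goblet-gated cell, for example, is a range on a score and not a type. The gate left 530 of 2695 small and 1964 of 5882 large intestinal cells unassigned. In the organoids it left 259 of 538 control and 546 of 1028 coculture cells unassigned. Class levels therefore do not cover all cells of a library. The gate was set after member values had been seen. In lymphatic endothelial cells Pecam1, the endothelial surface protein CD31, stood at 519 CPM in small and 464 in large intestine, and Epcam, an epithelial surface protein, at 62.0 and 489.

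Dll1, a ligand of secretory crypt cells, was highest in goblet-gated cells of the small intestine. There it stood at 60.5 CPM (297 UMIs in 207 cells), against 24.6 in tuft-gated, 9.65 in stem-gated, 9.13 in absorptive and 4.24 in lymphatic endothelial cells. The log2 ratio of the goblet level to the tuft level, the next in order, was 1.30 (0.82 to 1.82). In large intestine blood endothelial (18.2 CPM, 7 UMIs), tuft-gated (12.8) and goblet-gated cells (10.8) could not be ordered within counting error.

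Dll4, the main endothelial Delta ligand, was highest in both endothelia, with enteroendocrine-gated and goblet-gated cells next. In small intestine it stood at 129.9 CPM in 328 lymphatic endothelial cells (153 UMIs) and at 128 in 36 blood endothelial cells (18 UMIs), a log2 ratio of 0.02 (-0.69 to 0.81). Enteroendocrine-gated cells had 34.0 CPM, goblet-gated cells 17.7 and stem-gated cells 2.78. Paneth-gated cells, also secretory, had 2.74 CPM of Dll4 and 1.74 of Dll1. In large intestine blood endothelial cells (101 CPM) exceeded lymphatic endothelial cells (42.9; 1.24, 0.50 to 1.99), and enteroendocrine-gated and goblet-gated cells followed at 15.9 and 10.6 CPM.

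The Jagged ligands were led by blood endothelium. Jag1 stood at 99.6 CPM in small intestinal blood endothelial cells (14 UMIs) against 22.1 in lymphatic endothelial cells (2.17, 1.12 to 3.16). In large intestine it stood at 51.9 CPM in blood endothelial, 46.9 in smooth muscle or pericyte and 26.1 in lymphatic endothelial cells, and neighbours in this order overlapped. Jag2 stood at 121 CPM in small and 67.5 in large intestinal blood endothelial cells (17 and 26 UMIs). The next classes were tuft-gated cells at 13.9 CPM in small intestine (3.13, 2.12 to 4.11) and macrophages at 11.6 in large intestine (2.54, 1.55 to 3.59).

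The receptor Notch1 was highest in endothelium and, within the epithelium, in the crypt. Lymphatic and blood endothelial cells had 431 and 334 CPM in small intestine (0.37, -0.07 to 0.83) and 282 and 228 in large intestine (0.30, -0.07 to 0.69), so their order was not resolved. Macrophages had 87.5 and 96.2 CPM. Stem-gated cells had 62.2 and 51.3 CPM, absorptive cells 3.42 and 7.41 CPM and goblet-gated cells 0.815 and 1.55 CPM. The receptor Notch2 was led by macrophages in small intestine (57.4 CPM, above B cells at 27.3 by 1.07, 0.34 to 1.82). In large intestine fibroblasts (45.2 CPM), smooth muscle or pericyte cells (34.5), B cells (34.4) and lymphatic endothelial cells (29.1) came first, each within counting error of its neighbour. Blood endothelial cells had no Notch2 UMI in either tissue. Of the receptors outside the 9, Notch3 was highest within the large intestine in smooth muscle or pericyte cells (88.2 CPM in 113 cells). That class had 16 cells in small intestine, under the minimum of 20, and was not compared there. Notch4 was highest in blood endothelial cells (135 and 75.2 CPM).

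Hes1 was shared by endothelium, crypt and macrophages. In small intestine lymphatic endothelial cells had 171 CPM, stem-gated cells 149, blood endothelial cells 142 and macrophages 113, each within counting error of its neighbour. In large intestine stem-gated cells had 173 CPM, blood endothelial cells 163, macrophages 147 and lymphatic endothelial cells 119.5. Goblet-gated cells were far lower (22.4 and 31.1 CPM), and Paneth-gated cells of the small intestine had 5.35 CPM. After each cell was thinned at random to 2000 UMIs, a Hes1 UMI remained in 24.7% of small and 25.2% of large intestinal stem-gated cells, in 23.9% and 21.6% of lymphatic endothelial cells and in 8.08% and 5.98% of goblet-gated cells.

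Atoh1 was highest in goblet-gated cells, at 219.7 CPM in small (1078 UMIs) and 307 in large intestine (7320 UMIs in 986 cells). The libraries held 1553 and 13422 Atoh1 UMIs over all cells, unassigned ones included, so goblet-gated cells held only part of them. Paneth-gated cells followed in small intestine (30.5 CPM) and enteroendocrine-gated and cycling cells in large intestine (49.8 and 47.0 CPM). Lymphatic endothelial cells, which should lack the gene, had 1.70 and 19.9 CPM, against 1.67 and 12.8 CPM in stem-gated and 0.998 and 7.26 CPM in absorptive cells. In large intestine the other classes outside the epithelium ran from 1.66 CPM in macrophages to 9.65 in smooth muscle or pericyte cells, apart from B cells at 23.8. The stem-gated level there (126 UMIs) was thus below that of lymphatic endothelial and B cells and above the rest, and is not read as expression. These classes differ in depth, with medians of 22701 UMIs in stem-gated, 2653.5 in B and 2881 in lymphatic endothelial cells. The order therefore cannot decide whether stem-gated cells express Atoh1. Thinned to 2000 UMIs, 31.3% of small and 44.1% of large intestinal goblet-gated cells kept an Atoh1 UMI. The shares were 0.797% and 2.59% in lymphatic endothelial cells and 0 of 219 cells (which allows up to 1.37%) and 1.68% in stem-gated cells. Unthinned, 87.4% and 87.6% of goblet-gated cells held one. Median depths were 25598 and 26244.5 UMIs in goblet-gated and 3580 and 2881 in lymphatic endothelial cells.

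**Figure D1:**
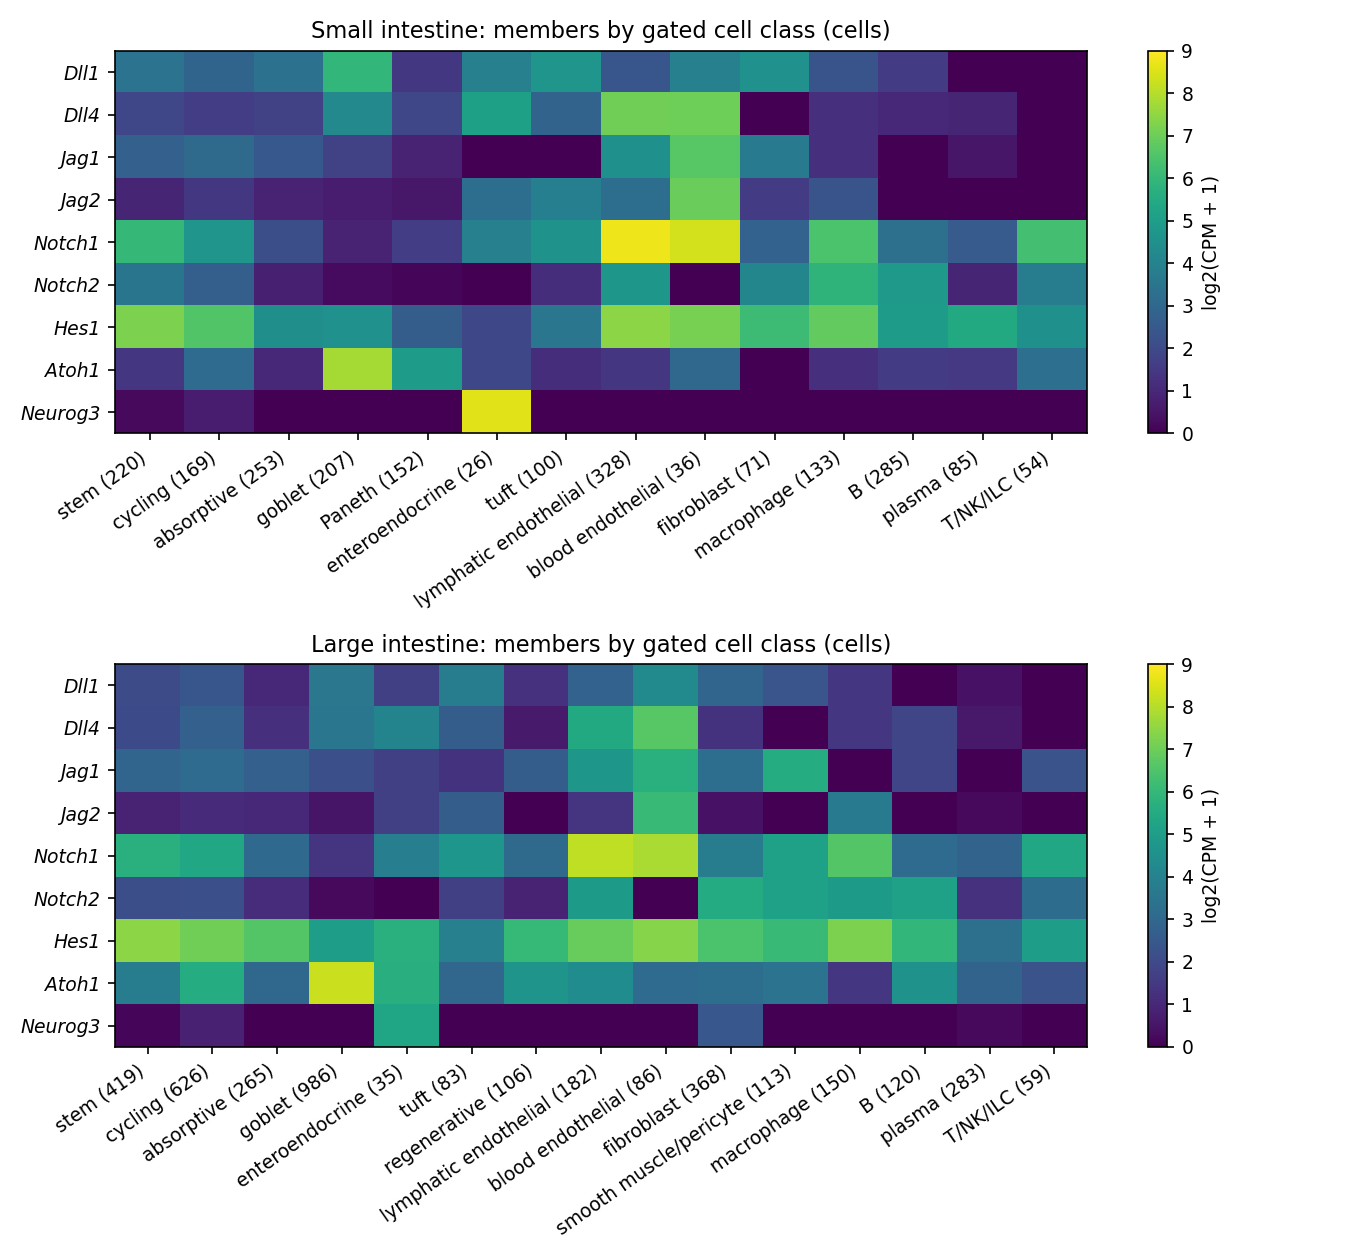
Level of each gene, as log2(CPM + 1), in gated classes of at least 20 cells of the small and the large intestinal library; colours are to be compared along a row only. Notch1 and Dll4 are bright in the endothelial classes, Jag2 in blood endothelium and Atoh1 in goblet-gated cells.

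Neurog3 was carried by few cells. The small intestinal library had 170 UMIs in 10 cells, of which 1 enteroendocrine-gated cell held 102. The large intestinal library had 302 UMIs in 23 cells, and 249 of these lay in 13 cells that the gate left unassigned. The level of enteroendocrine-gated cells, 385 and 38.5 CPM in small and large intestine, therefore leaves out most Neurog3 RNA of the large intestine. Cells of any class with a Neurog3 UMI (Neurog3-positive) were then set against epithelial cells without one, a comparison chosen after seeing the data. A single UMI was enough, and 5 of the 10 small and 19 of the 23 large intestinal cells held 2 or more. In the organoids the 2 control cells and 10 of the 13 coculture cells did. The positive cells included 1 enteric neuron-gated cell in small intestine, with 28 UMIs. In large intestine they included 2 enteric neuron-gated, 1 fibroblast-gated and 1 plasma-gated cell. The share of all genes was not computed for this comparison. Insm1, an endocrine zinc finger factor, stood at 289 against 2.46 CPM in small and 310.1 against 1.88 CPM in large intestine, and Neurod1, a factor of the same branch that also served the gate, at 547 against 8.01 CPM and 153 against 1.99 CPM. In control and coculture organoids Insm1 stood at 146 against 1.23 CPM and 279 against 1.91 CPM. Chgb, a secretory granule protein of endocrine cells and part of the gate, was higher in the Neurog3-positive cells of small (5.72, 5.63 to 5.81) and large intestine (4.53, 4.45 to 4.61), but lower in those of coculture (41.4 against 166 CPM; -2.01, -2.48 to -1.57), and stood at 23.4 against 56.2 CPM in the control (-1.26, -3.14 to 0.09).

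Both Delta ligands were higher in Neurog3-positive cells of every library. Dll4 stood at 76.1 against 1.97 CPM in the control (5.27, 4.30 to 6.12, 2 cells), 11.8 against 2.03 CPM in coculture (2.54, 1.56 to 3.38), 67.1 against 4.22 CPM in small (3.99, 3.06 to 4.80) and 16.8 against 6.50 CPM in large intestine (1.37, 0.36 to 2.22). Dll1 had log2 ratios of 4.17, 2.01, 2.66 and 1.31 in the same order, and all 15 small intestinal UMIs lay in 1 cell. Hes1 was lower in the control cells (-2.88, -5.16 to -1.33, from 3 UMIs) and in the coculture cells (-1.20, -1.67 to -0.77). It had no UMI in the small intestinal ones, and its interval in large intestine included 0 (-0.40, -0.85 to 0.02). Atoh1 stood at 41.3 against 32.4 CPM in small and 97.8 against 114 CPM in large intestine, and both intervals included 0. In the organoids it had 3 UMIs in the control cells (1.13, -1.16 to 2.68). It had none in the 13 coculture cells, against 625 in the others. With that 0 set to 3 the log2 ratio was -1.14, with an interval that ended at -0.84. In the control 12 of the 13 Dll4 UMIs lay in 1 goblet-gated cell. The other Dll4 values rest on 12 UMIs in 7 coculture, 13 in 5 small and 11 in 6 large intestinal cells.

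Lymphatic endothelial and stem-gated cells, the populations enriched by the sort, differed in ligands and receptors and little in Hes1. A gene was counted where at least 1 of the classes had 20 UMIs or more and the levels differed at least 2-fold either way; the class with more UMIs need not be the one with the higher level. By this rule 5 of 6 genes with enough UMIs differed in small intestine, against 51.8% of all genes, and 4 of 7 in large intestine, against 38.6%. Dll4 was higher in lymphatic endothelial cells by 5.54 (4.78 to 6.42) (log2) in small and 3.82 (3.02 to 4.61) in large intestine, and Notch1 by 2.79 and 2.46. Jag1 was higher by 1.94 and 1.96 and Notch2 by 1.34 and 3.08. Dll1 was counted too in small intestine, at -1.18 (-2.87 to 0.13), an interval that includes 0. Hes1 differed by 0.19 (-0.04 to 0.42) in small and -0.53 (-0.88 to -0.21) in large intestine. Between lymphatic and blood endothelial cells, 1 of 5 genes differed in small (28.1% of all genes) and 2 of 5 in large intestine (27.6%): Jag1 was lower in lymphatic cells of the small intestine (26 UMIs against 14 in blood endothelial cells), and Dll4 and Jag2 were lower in those of the large intestine. Jag2 in small intestine had 10 UMIs in lymphatic and 17 in blood endothelial cells, too few for the count (-3.83, -5.12 to -2.62). With 20 UMIs required in the class with the higher level, which was tried after seeing the data, the count of lymphatic endothelial over stem-gated cells in large intestine was 2 of 3 genes (against 40.5% of all genes), as Jag1 and Notch2 had 17 and 19 UMIs in lymphatic cells, and that of lymphatic over blood endothelial cells in small intestine was 0 of 4 genes (against 33.6% of all genes); in the other comparisons between classes the number past 2-fold did not move.

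Of 37 other Notch pathway genes, 27 had enough UMIs in the small intestinal comparison of lymphatic endothelial with stem-gated cells; 13 were at least 2-fold higher and 1 lower, with a median of 0.85 against 0.05 over all genes. That is about the share of all genes given above. In large intestine the numbers were 28, 11 and 3, with medians of 0.87 and 0.06, against 38.6% of all genes. Dtx1, an E3 ligase and Notch target, stood at 497 and 317 CPM in small and large intestinal lymphatic endothelial cells, with no UMI in blood endothelial cells of either tissue. Hey1, a repressor related to HES proteins, stood at 49.2 and 62.8 CPM in lymphatic and 178 and 114 CPM in blood endothelial cells, with no UMI in stem-gated cells. Nrarp, a feedback inhibitor of the Notch complex, stood at 142 and 80.4 CPM in blood endothelial cells and at 16.0 and 24.0 CPM in stem-gated cells, with log2 ratios of lymphatic to blood endothelial cells of -4.07 and -4.13. Others that were higher in lymphatic endothelial than in stem-gated cells of both tissues included Lfng, a Fringe glycosyltransferase that modifies Notch receptors (3.30 and 1.70). Its large intestinal value came from 18 UMIs in lymphatic cells. Higher too were the coactivator Maml2 (4.69 and 6.35), the gamma-secretase genes Aph1b (6.43 and 4.36) and Psen2 (3.14 and 3.25), and the protease Adam10 (2.41 and 2.02). Hes6 was lower (-5.49 and -1.74).

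Within the epithelium, receptors and Hes1 lay on the stem-gated side and Delta ligands and Atoh1 on the goblet-gated side. Between stem-gated and goblet-gated cells 7 of 7 genes differed at least 2-fold in small intestine, against 45.8% of all genes, and 6 of 7 in large intestine, against 35.9%. The log2 ratio of stem-gated to goblet-gated levels was 6.25 (4.88 to 8.14) for Notch1 in small and 5.04 (4.56 to 5.57) in large intestine. For Hes1 it was 2.74 (2.45 to 3.04) and 2.48 (2.35 to 2.60). For Dll1 it was -2.65 (-3.10 to -2.22) and -1.73 (-2.31 to -1.20), and for Dll4 -2.67 (-3.57 to -1.87) and -1.81 (-2.40 to -1.26). Against absorptive cells, 3 of 5 genes differed from stem-gated cells in small (53.6% of all genes) and 4 of 7 in large intestine (37.3%), with Notch1 higher in stem-gated cells by 4.18 and 2.79 and Hes1 by 2.81 and 0.87. Between goblet-gated and absorptive cells the counts were 4 of 6 (39.2%) and 5 of 6 (30.5%); Hes1 was not separated by counting error in small intestine (0.08, -0.29 to 0.44) and lower in goblet-gated cells of the large intestine (-1.61, -1.76 to -1.45).

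Between stem-gated and goblet-gated cells 25 of the 37 pathway genes had enough UMIs in small intestine, with 6 higher in stem-gated cells and 2 lower, and 27 in large intestine, with 3 higher and 2 lower, fewer than the 45.8% and 35.9% of all genes. Nrarp was higher in stem-gated cells of both tissues (3.12 and 2.97), Hes5, a relative of Hes1, in large intestine (3.86), and the receptor Notch4 was lower in both (-1.25 and -2.04). Of 17 fate factors, 8 had enough UMIs in small intestine, with 1 higher and 5 lower, and 9 in large intestine, with 2 higher and 6 lower; Spdef and Olfm4 are among them and served the gate. Of those that did not, the secretory factors Gfi1 (-6.44 and -4.83), Creb3l1 (-5.99 and -2.18), Bhlha15 (-5.44 and -4.32) and Xbp1 (-2.38 and -1.68) were lower in stem-gated cells.

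Epithelial cells with an Atoh1 UMI were set against those without one after thinning, to 2000 UMIs in tissue and 10000 in organoids. In large intestine (635 against 3027 cells) Dll1 stood at 17.3 against 4.96 CPM (1.81, 0.94 to 2.65) and Dll4 at 14.2 against 5.45 (1.38, 0.46 to 2.25). Hes1 stood at 40.2 against 115 CPM (-1.52, -1.96 to -1.11), and Notch1 had 2 UMIs against 161 (-4.08, -7.14 to -2.20). With Notch2, which had 1 UMI against 24 and an interval that includes 0 (-2.33, -7.69 to 0.28), 5 of 7 genes other than Atoh1 differed at least 2-fold, against 16.5% of all genes. Without thinning the log2 ratios were 3.29 for Dll1, 2.69 for Dll4 and -1.56 for Notch1.

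The other libraries had fewer such cells. In coculture (38 against 879 cells) 3 of 7 genes differed, against 22.3% of all genes: Dll1 (2.56, 1.46 to 3.54), Jag2 (1.62, 0.10 to 2.86) and Notch2, with 1 UMI against 55 and an interval that includes 0 (-1.25, -6.58 to 1.29). Dll4 had 14 UMIs against 17 (4.25, 3.12 to 5.36), with both numbers under 20 and so not counted, and in small intestine 1 against 18 (0.03, -5.35 to 2.70). In the control (21 against 428 cells) the count was 0 of 5, against 22%, but both Delta ligands were on the higher side with too few UMIs to be counted: Dll1 had 13 UMIs against 19 (3.80, 2.66 to 4.90) and Dll4 5 against 1 (6.67, 3.51 to 12.23). In small intestine (64 against 1178 cells) it was 1 of 4, against 27.7%, from 6 Dll1 UMIs, with an interval that includes 0 (1.33, -0.19 to 2.56). Hes1 had log2 ratios of -0.63 (-1.43 to 0.06) in the control, -0.68 (-1.36 to -0.07) in coculture and -0.29 (-1.76 to 0.87) in small intestine. In control and coculture they were -1.91 and -1.70 where at least 2 Atoh1 UMIs were required. With 20 UMIs required in the cells with the higher level, 0 of 3 genes (against 22.5% of all genes) were past 2-fold in the control, 1 of 4 genes (against 22.7% of all genes) in coculture, 0 of 3 genes (against 29.8% of all genes) in small and 4 of 6 genes (against 17.6% of all genes) in large intestine; neither Delta ligand was then counted in coculture or small intestine, nor Dll4 in large intestine.

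In the organoids, Neurog3 was the gene that differed at least 2-fold between coculture and control, and no ligand or receptor passed that fold over all cells. By the rule above 1 of 9 genes differed over all cells, against 6.89% of all genes, whose median log2 ratio was -0.10. In control and coculture, Dll1 stood at 6.95 and 6.03 CPM, Dll4 at 2.29 and 2.13 CPM, Jag1 at 7.26 and 5.77 CPM and Jag2 at 9.33 and 5.99 CPM. The receptors stood at 7.14 and 5.80 CPM (Notch1) and 9.66 and 6.01 CPM (Notch2). Hes1 stood at 129 and 96.9 CPM and Atoh1 at 8.09 and 6.45 CPM. The log2 ratios of coculture to control were -0.68 (-0.87 to -0.50) for Notch2, -0.64 (-0.83 to -0.45) for Jag2 and -0.41 (-0.46 to -0.37) for Hes1. The intervals of Dll1 (-0.20, -0.41 to 0.00) and Dll4 (-0.10, -0.45 to 0.26) included 0. By the mean of each cell's own CPM, Notch2 was at -1.12 and Atoh1 changed side, from -0.33 to 0.39.

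Neurog3 stood at 1.25 CPM in the control (54 UMIs in 2 cells) and 3.89 in coculture (377 UMIs in 13 cells), a log2 ratio of 1.64 (1.23 to 2.08). In the control 41 of the UMIs lay in 1 goblet-gated cell, and in coculture 135 lay in 1 unassigned cell. Without the top cell of each library the ratio was 3.05, and by the mean of each cell's own CPM 2.26. Enteroendocrine-gated cells made up 5 of 538 control cells (0.929%, exact binomial interval 0.302% to 2.16%) and 23 of 1028 coculture cells (2.24%, 1.42% to 3.34%), but 263 of the coculture Neurog3 UMIs lay in 7 unassigned cells and 110 in 4 enteroendocrine-gated ones. Unassigned control cells had 0 Neurog3 UMIs. With that 0 set to 3, the log2 ratio of coculture to control there was 4.94, with an interval from 4.63 upwards. The part of the enteroendocrine share in the Neurog3 value was not tested. In the 23 coculture cells Dll4 stood at 44.1, Jag2 at 48.4 and Dll1 at 25.6 CPM.

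**Figure D2:**
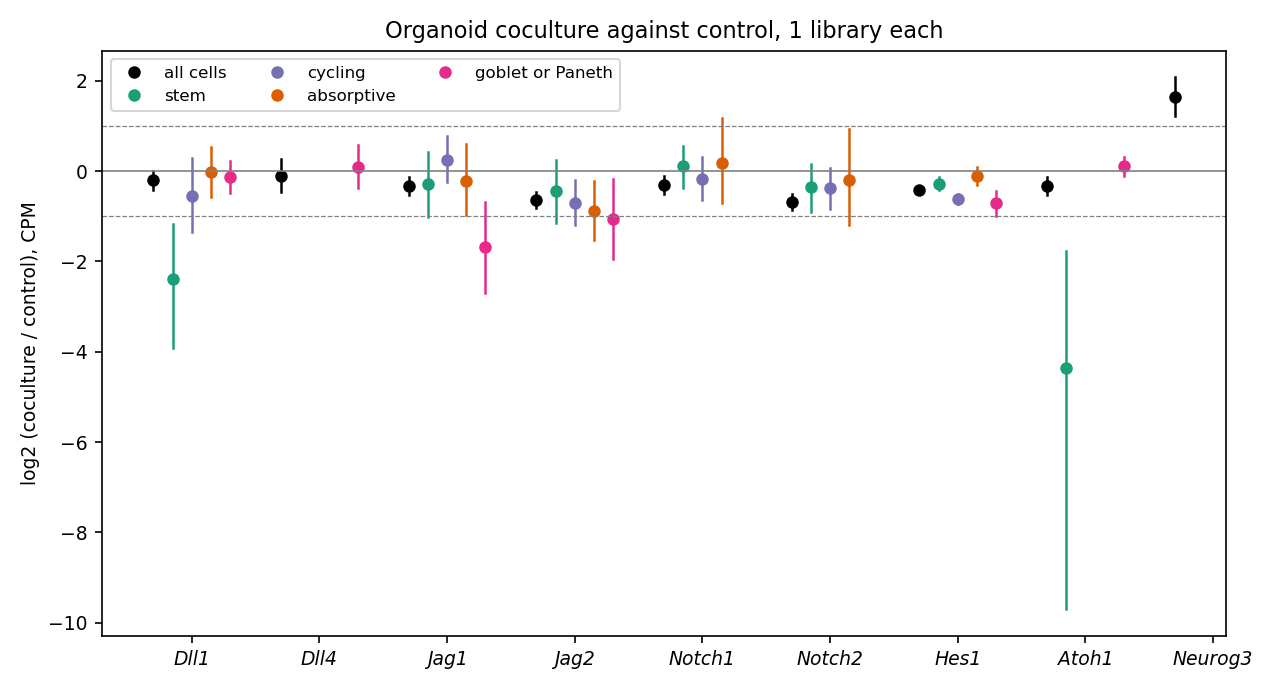
Log2 ratio of coculture to control for each gene over all cells and within gated classes; bars are 95% counting intervals, dashed lines mark 2-fold, and ratios need at least 20 UMIs in the group with more UMIs and 1 in the other. Over all cells only Neurog3 lies past 2-fold.

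Of the 37 other pathway genes, 28 had enough UMIs, 1 was at least 2-fold higher in coculture and 1 lower, with a median of -0.17. The higher one was Dlk1, a Delta-like protein (5.62), with 109 of its 110 UMIs in 1 enteroendocrine-gated cell, and the lower one Notch4 (-1.30). All 17 fate factors had enough UMIs, 6 were higher and 1 lower, with a median of 0.52. Over all genes 6.89% were past 2-fold, with a median of -0.10. The higher fate factors included those of enteroendocrine cells, Insm1 (1.42), Pax6 (1.33), Isl1 (1.29), Neurod1 (1.26) and Pax4 (1.16). In the control these had UMIs in only 8, 6, 4, 4 and 1 cells, in the same order, so their ratios rest on few cells. For Pax6, 22 of 37 control and 98 of 208 coculture UMIs lay in 1 cell of each library. The lower one was Olfm4, a crypt glycoprotein (-1.19).

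Within organoid classes, the secretory cells' Atoh1 and Delta ligands differed little. In goblet or Paneth-gated cells (26 control and 55 coculture cells) Atoh1 stood at 116 CPM in the control and 125 in coculture (0.10, -0.11 to 0.32), Dll1 at 46.5 CPM in the control and 42.4 in coculture (-0.13, -0.49 to 0.23) and Dll4 at 24.8 CPM in the control and 26.5 in coculture (0.10, -0.38 to 0.58). In these cells 3 of 7 genes differed at least 2-fold, against 6.69% of all genes: Jag1 (-1.67, -2.71 to -0.68), Jag2 (-1.06, -1.95 to -0.17) and Neurog3, with 41 control UMIs in 1 cell and 0 in coculture. The class joined 8 Paneth-gated and 18 goblet-gated control cells but 22 and 33 of coculture. Paneth-list UMIs had medians of 885 of 10000 in control and 2284 in coculture Paneth-gated cells and 87.1 and 15.9 in goblet-gated cells, so that this class held unlike cells in the 2 libraries; the part of this in these values was not tested. Hes1 was lower in coculture in these cells (-0.71, -0.99 to -0.43), in cycling cells (-0.61, -0.72 to -0.50) and in stem-gated cells (-0.28, -0.42 to -0.13), and its interval included 0 in absorptive (-0.10, -0.30 to 0.09) and regenerative-gated cells (-0.14, -0.48 to 0.19). Cycling and absorptive cells had 0 of 6 and 0 of 6 genes past 2-fold, against 2.1% and 7.24% of all genes. Regenerative-gated cells had 1 of 4, against 12%, which was Jag1 (39 control and 5 coculture UMIs, -1.81, -3.51 to -0.47).

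In stem-gated cells 2 of 7 genes differed, against 2.27% of all genes. Dll1 had 51 UMIs in 61 control and 6 in 37 coculture cells (-2.40, -3.91 to -1.18), and Atoh1 had 33 and 1 (-4.36, -9.70 to -1.78). The stem marker Lgr5, itself part of the gate, stood at 12.8 CPM in these control cells and 1.49 in these coculture cells, so that the gate held unlike cells in the 2 libraries; its part in the Dll1 and Atoh1 values was not tested. The receptors stood at log2 ratios of 0.10 (Notch1) and -0.36 (Notch2).

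Between small and large intestinal cells of the same gated class, Dll1 was higher in small intestinal goblet-gated cells and Dll4 in small intestinal lymphatic endothelial cells. In both classes the share of the 9 genes past 2-fold was near that of all genes. Over 13 classes, 55 of 117 pairs of a gene and a class had at least 20 UMIs, and 20 differed at least 2-fold, where the share of all genes ran from 11.4% to 32.3% by class. In goblet-gated cells Dll1 stood at 60.5 CPM in small and 10.8 in large (2.49, 2.25 to 2.74). It was the 1 of 6 genes past 2-fold there, against 20.2% of all genes. The goblet class joined cells of a goblet list and of a list for deep crypt secretory cells of the large intestine, and Dll1 was lower in large intestine in both, at 63.9 against 4.72 CPM and 57.3 against 13.5. Atoh1 stood at 219.7 CPM in small and 307 in large (-0.49, -0.58 to -0.39) and Dll4 at 17.7 CPM in small and 10.6 in large (0.74, 0.37 to 1.095) in goblet-gated cells.

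In lymphatic endothelial cells Dll4 stood at 129.9 CPM in small and 42.9 in large (1.60, 1.01 to 2.23), the 1 of 5 genes past 2-fold, against 17.1% of all genes. By the mean of each cell's own CPM its ratio was 1.01. Notch1 (0.61, 0.37 to 0.86) and Hes1 (0.51, 0.13 to 0.91) were also higher in small intestine, by less than 2-fold. Epcam in these cells was lower in small intestine, as given above, and its part in these values was not tested. Blood endothelial cells had 0 of 5 genes past 2-fold, against 18.5%.

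In stem-gated cells 3 of 7 genes differed, against 14.5% of all genes: Dll1 (9.65 CPM in small and 3.24 in large; 1.57, 0.91 to 2.26), Notch2 (10.4 CPM in small and 3.45 in large; 1.59, 0.95 to 2.25) and Atoh1 (1.67 CPM in small and 12.8 in large; -2.94, -4.10 to -1.96), whose large intestinal level lay within the range of classes outside the epithelium. The stem classes were unlike: the median of the stem list was 90.2 of 10000 UMIs in small and 16.7 in large intestine, and 9 of 220 and 182 of 419 cells lay near the threshold of the gate. The part of this in these values was not tested. In absorptive cells 4 of 5 differed, against 32.3%: Hes1 (21.2 CPM in small and 94.8 in large; -2.16, -2.42 to -1.90), Dll1 (9.13 CPM in small and 1.04 in large; 3.14, 2.01 to 4.51), Notch1 (3.42 CPM in small and 7.41 in large; -1.11, -1.88 to -0.38) and Atoh1 (0.998 CPM in small and 7.26 in large; -2.86, -4.25 to -1.71), within the same range. The absorptive class joins an enterocyte and a colonocyte list, so that it holds different cells in the 2 tissues. At a gate of 4 times the library's share the Notch1 ratio was -2.05. Cycling cells had 2 of 8, against 18.6%: Atoh1 (7.87 CPM in small and 47.0 in large; -2.58, -3.02 to -2.16) and Dll4 (2.09 CPM in small and 5.73 in large; -1.46, -2.41 to -0.63).

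Enteroendocrine-gated cells had 3 of 3 genes past 2-fold, against 23.8% of all genes. Neurog3 was higher in small intestine (3.32, 2.59 to 4.14), with 102 of its 136 small intestinal UMIs in 1 cell. By the mean of each cell's own CPM the ratio was 4.88. The gate left 249 of the 302 large intestinal Neurog3 UMIs in unassigned cells. Over all cells of the libraries Neurog3 stood at 3.26 CPM in small and 2.44 in large intestine. The Visium sections had 0 and 0 Neurog3 UMIs in small and 6 and 14 in large intestine. Hes1 and Atoh1 had 1 UMI each in small against 23 and 22 in large intestine. Fibroblasts had 2 of 5, against 15.4%, with Notch2 (-1.47, -2.71 to -0.44) on the lower side in small intestine, and Notch1 too, with 3 UMIs against 36 and an interval that includes 0 (-1.11, -3.45 to 0.55). Plasma cells had 2 of 3, against 16.5%, with Hes1 higher (2.27, 1.76 to 2.79) and Atoh1 lower, at 1.84 and 6.29 CPM, levels of a class outside the epithelium that are not read as expression, although the pair is among the 20. Tuft-gated cells had 1 of 3 (Jag2, 1.40, 0.12 to 2.87), against 17%, and B cells 1 of 2 (Hes1, -1.003, -1.83 to -0.15), against 14.2%. Macrophages had 0 of 3, against 11.4%, and in T, NK or innate lymphoid cells no gene had enough UMIs, where 21.2% of all genes differed.

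**Figure D3:**
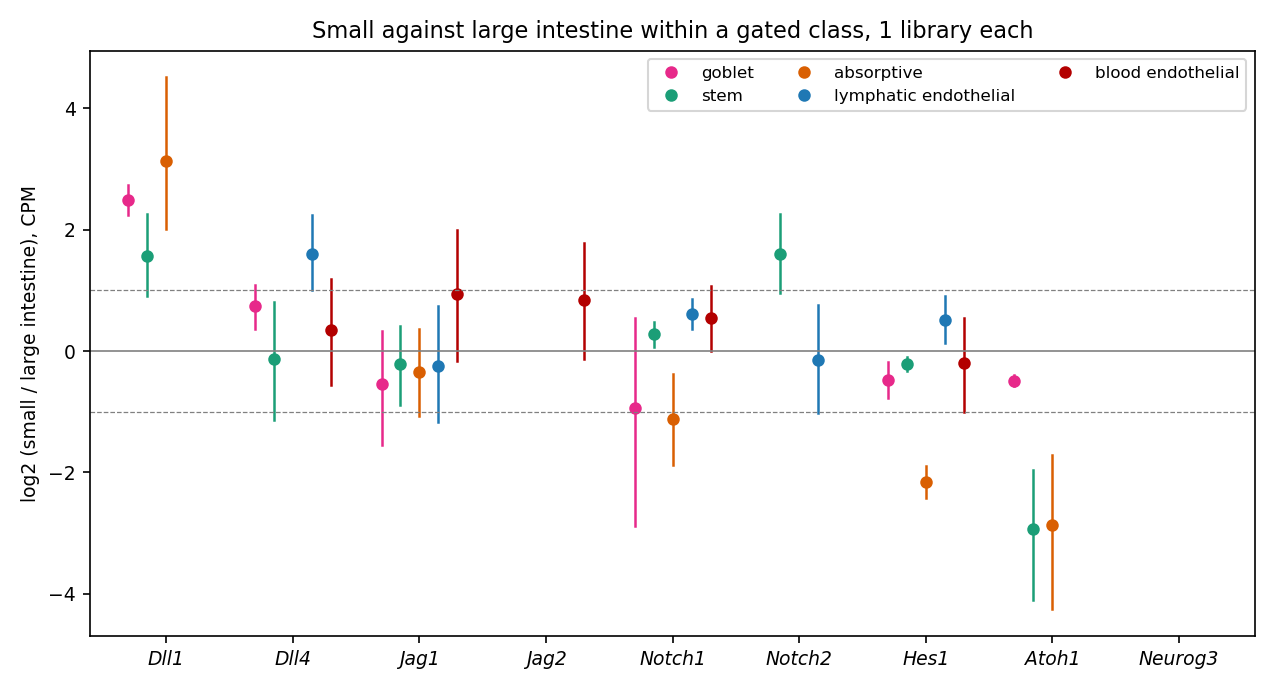
Log2 ratio of small to large intestine for each gene within gated classes; bars are 95% counting intervals, dashed lines mark 2-fold, and ratios need at least 20 UMIs in the tissue with more UMIs and 1 in the other. Dll1 lies above 1 in goblet-gated cells and Dll4 in lymphatic endothelial cells.

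Among the 37 pathway genes, 27 had enough UMIs in goblet-gated cells, with 1 at least 2-fold higher in small intestine and 2 lower: Neurl1a, an E3 ligase of ligand endocytosis (3.69), Dlk1 and Aph1b (-2.42). Dlk1 had 0 UMIs in small and 434 in large intestinal goblet-gated cells. In lymphatic endothelial cells 23 had enough UMIs, with 3 higher and 0 lower; the higher ones were Maml1, a coactivator (2.19), Ncstn, a gamma-secretase subunit (1.88), and Lfng (1.66). Their median was 0.43, against 0.10 over all genes. In stem-gated cells 25 had enough UMIs, with 0 higher and 2 lower, Hes5 (-2.94) and Aph1b (-2.39). These counts lie below the shares of all genes, 20.2%, 17.1% and 14.5%.

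In the Visium sections, where a spot mixes cells, fewer cells of a type and less RNA per cell cannot be told apart. Values are given for the first and second small and then the first and second large intestinal section. Dll4 stood at 19.5, 21.9, 8.53 and 9.10 CPM, higher in both small sections. Between the closest sections its log2 ratio was 1.102, the only one of the 8 genes with enough UMIs past 2-fold, where 21.7% of all genes were, so the count is below the background. Without mitochondrial and ribosomal genes in the total, its ratio of means was 1.09 and the closest sections were under 2-fold. Hes1 stood at 36.5, 39.1, 64.0 and 65.4 CPM and Atoh1 at 34.6, 32.0, 52.9 and 52.8 CPM, both higher in the large sections (-0.78 and -0.67, small over large).

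The other genes with enough UMIs differed less. Dll1 stood at 10.1, 9.97, 7.73 and 7.80 CPM, and Notch1 at 15.5, 14.9, 18.0 and 18.3 CPM. Jag1 stood at 10.9, 13.5, 10.8 and 9.95 CPM and Notch2 at 9.61, 11.1, 9.38 and 8.94 CPM, with duplicates of the small intestine further apart than the closest sections of the 2 tissues. Jag2 stood at 2.18, 3.32, 1.99 and 1.64 CPM, and its small sections differed by -0.61. Neurog3, too low to be counted, had 0 UMIs in both small sections and 6 and 14 in the large. The sections of the 2 tissues did not overlap for any of the 8 genes, as for 85.6% of all genes. Of the 37 pathway genes Dtx1 (1.18) and Neurl1a (1.01) were higher and Dlk1 (-4.85) lower in small intestine past 2-fold between the closest sections. By the ratio of section means Maml2 (1.095), Lfng (1.06) and Maml3 (-1.07) were past it as well.

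**Figure D4:**
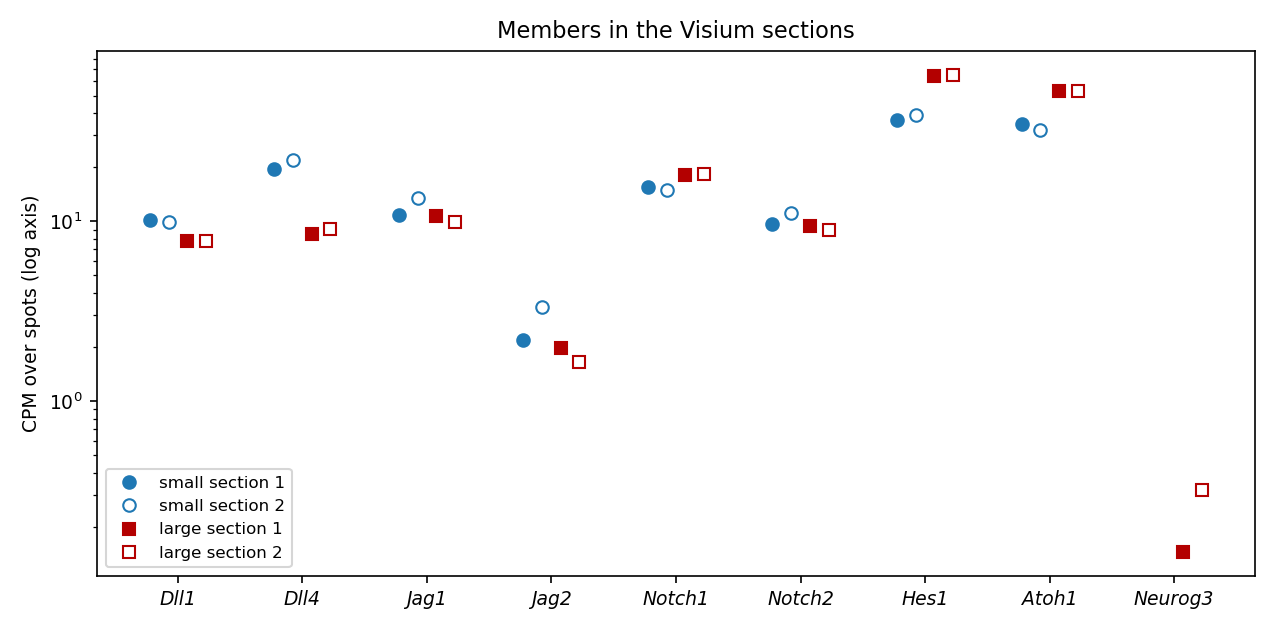
CPM of each gene over the spots of each section, on a log axis, for small and large intestine; Neurog3 was at 0 in both small sections and is not drawn there. Dll4 is higher in both small sections, and Hes1 and Atoh1 in both large ones.

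Spots were thinned to 2000 UMIs and divided into those with and those without a UMI of the crypt genes Lgr5, Ascl2, Olfm4, Slc12a2, Cdca7 and Gkn3. Hes1 was higher in crypt spots of every section, with 12.5 against 6.08 UMIs per 100 spots in the first small section (1.04, 0.59 to 1.49), 15.6 against 8.24 in the second (0.92, 0.57 to 1.28), 15.9 against 9.66 in the first large section (0.72, 0.33 to 1.11) and 15.03 against 11.1 in the second (0.43, 0.05 to 0.81). Notch1 was higher in all 4 (0.38, 1.29, 1.27 and 0.69), as were Dll1 (0.57, 1.30, 0.40 and 0.85) and Atoh1 (0.37, 0.72, 0.67 and 0.30), with intervals that included 0 in some sections. Dll4 had no common direction (-0.27, -0.45, 0.46 and 0.14). Genes past 2-fold, with the share of all genes in brackets, were 1 of 7 (11.7%), 2 of 7 (12.1%), 1 of 7 (5.31%) and 0 of 7 (5.43%). These 4 became 1 without Olfm4 and 7 without thinning. Olfm4 UMIs numbered 7280 and 5600 for small intestine, against 0 and 4 for large. Without it Hes1 was at 0.91 and 0.78 in the small sections, and Dll1 turned to -0.16 in the first.

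A split at the median of the muscle genes Acta2, Myh11, Des and Tagln was added after seeing the data. Notch2 was higher in muscle-rich spots of all 4 sections (1.35, 1.84, 1.85 and 1.44), and every interval lay above 0. Jag1 (0.74, 1.17, 1.29 and 0.71) and Notch1 (0.75, 0.77, 0.30 and 1.09) lay on the same side. The Jag1 intervals included 0 in the first small and the second large section, and that of Notch1 in the first large section. Dll4 lay on the lower side in 3 sections and on the higher side in the first large one (-0.64, -0.66, 1.15 and -0.21), where it is 1 of the genes counted. Notch1 was thus on the higher side of both splits. So were Notch2, at 0.96, 0.06, 0.12 and 0.51 in the crypt split, and Hes1, at 0.19, 0.62, 0.04 and 0.06 in the muscle split. These Notch2 intervals all included 0, as did those of Hes1 except in the second small section. Genes past 2-fold were 1 of 7 (21.5%), 2 of 7 (25.8%), 3 of 6 (14.1%) and 2 of 7 (13.6%). In the dissociated large intestine, smooth muscle or pericyte cells were likewise second in order for Notch2 and Jag1.

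**Figure D5:**
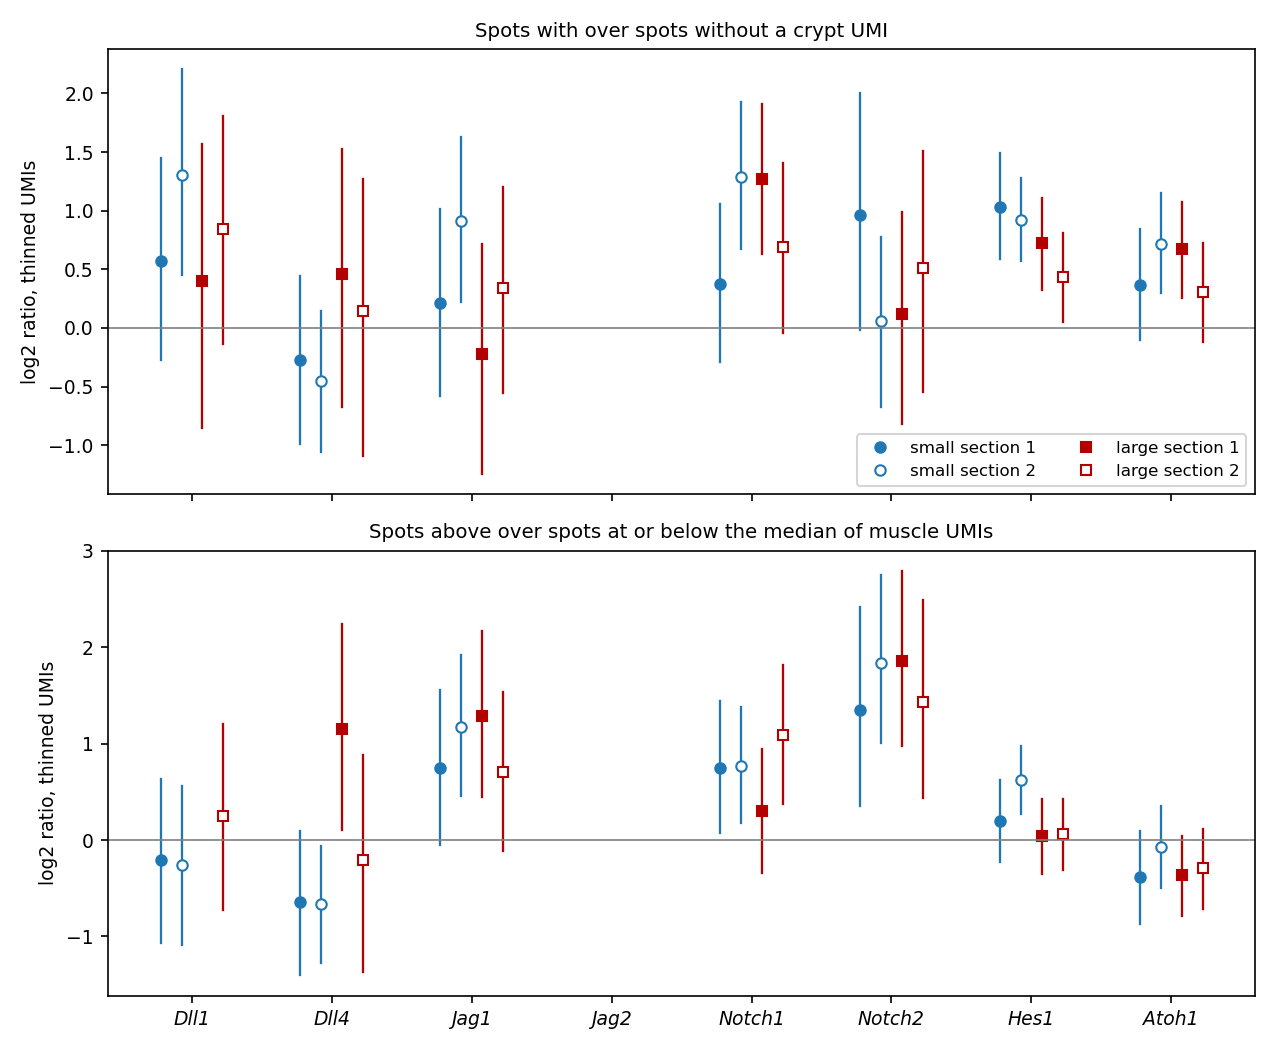
Log2 ratios of thinned UMIs in each section between spots with and without a crypt UMI and between spots above and not above the median of muscle UMIs, with 95% counting intervals, where the group with more UMIs had at least 20. Hes1 and Notch1 lie above 0 in all 4 sections of the crypt split, and Notch2 and Jag1 in all 4 of the muscle split.

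Over 40 profiles of a library and a class, the genes most like each member by Pearson's r of log2(CPM + 1), among 13036 genes with at least 100 UMIs, are given as a description, since the profiles share libraries and depth. For the ligands they were Nectin1 (0.768), Impad1 (0.736) and Spef1 (0.715) for Dll1, Tmem44 (0.839), Fzd6 (0.808) and Wscd1 (0.806) for Dll4, Spry1 (0.823), Nfib (0.815) and Lmcd1 (0.807) for Jag1 and Rasgrf2 (0.763), Scarb1 (0.730) and Eva1c (0.725) for Jag2. For the receptors they were Dennd2c (0.813), Arap3 (0.811) and Vav3 (0.808) for Notch1 and Cebpb (0.745), Bcl6 (0.744) and Chsy1 (0.731) for Notch2. For Hes1 they were Zfp36l2 (0.736), Dock1 (0.732) and Usp1 (0.731), for Atoh1 Galnt5 (0.887), Spink4 (0.882) and Spdef (0.877) and for Neurog3 Kcnb2 (0.973), Pax6 (0.973) and Iapp (0.971). Spdef and Spink4 served the gate. Among the 9, Jag1 with Hes1 (0.612), Dll1 with Dll4 (0.570) and Dll4 with Jag2 (0.537) were closest.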

How the data were processed

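The authors deposited matrices of raw UMI counts per gene and barcode, made with Cell Ranger 6.0.1 (single cells) and Space Ranger 1.2.1 (Visium), per the file headers; the submitters' processing notes name the build mm10. Deposited totals ran from 24356162 to 142501907 UMIs per library. A cell was used if it had 500 genes or more and no more than 20% mitochondrial UMIs; the top Scrublet scores (0.8% per 1000 cells) were removed as doublets; a spot needed 500 UMIs.

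Each cell's share of UMIs on 23 marker lists was divided by that of its library (for organoids, the mean of both). A cell took the list with the highest ratio if this was at least 2, at least 3 markers were detected and no unrelated list came within a factor of 2; epithelial classes also needed 3 pan-epithelial genes and endothelial classes 1 pan-endothelial gene. Classes under 20 cells were not compared, among them the 16 smooth muscle or pericyte cells of the small intestine. In the large intestine 182 of 419 stem-gated and 183 of 626 cycling cells lay within a ratio of 2.5, near the threshold.

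Ratios are log2 ratios of CPM of summed counts with exact Poisson intervals. A count of 0 was set to 3, which gives an approximate bound that can lie inside the interval. No ratio is given where both counts were 3 or lower. A 2-fold difference counted where the group with more UMIs had at least 20; the rule for named genes can also be read as asking this of the group with the higher level, and counts by that reading were added after seeing the data. Intervals cover counting error only. The 9 genes are always named; from lists of 37 pathway genes and 17 fate factors, those past 2-fold were eligible, up to 10 by size, and 1 of them is not reported here. Scripts were tested on simulated data. Members and lists were chosen with earlier results of these data known, and the gate, its merged classes, the epithelial restriction of the Atoh1 comparison, the comparison of Neurog3-positive cells and the muscle split were chosen after seeing the data. Promoter entries were found for 8 of the 9 genes. Python 3.11.15, NumPy 2.4.6, SciPy 1.17.1 and Scanpy 1.11.5 were used.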

Additional observations from a re-analysis of the deposited data

Results flagged for a closer look

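Dll4 in Visium spots with a crypt UMI lay on opposite sides in the 2 tissues. Its log2 ratio over spots without one was -0.27 and -0.45 in the small and 0.46 and 0.14 in the large intestinal sections. The difference between the tissues was not tested, every one of the 4 intervals included 0, and the sections are technical duplicates. The crypt genes include Olfm4, with 7280 and 5600 UMIs in the small but 0 and 4 in the large sections, so that the split marks different spots in the 2 tissues.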

How the results depend on the processing

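No paired analysis was possible because the design has 1 library per organoid condition and sorted tissue, section numbers name technical duplicates of different tissues, and no test was run. Over all organoid cells 1 gene was past 2-fold, and 2 by the mean of each cell's own CPM. Between Visium tissues the count was 1, and 0 without mitochondrial and ribosomal genes; leaving out each section in turn gave a lowest and highest count of 1, with Dll4 at 1.15 to 1.31. In crypt spots 4 pairs of a gene and a section were past 2-fold, against 7 without thinning and 1 without Olfm4. In cells with an Atoh1 UMI 9 pairs of a gene and a library were past 2-fold, against 20 without thinning and 5 with the minimum of 20 UMIs in the group with the higher level; that minimum moved none of the counts of the organoids over all cells, the tissues within classes or the crypt spots. The cause of these shifts was not tested. Within classes, the 20 differences between tissues became 17 with clusters named by markers and 28 with doublets kept. An endothelial class led in 10 of 18 pairs of a gene and a tissue, and in 9 to 11 under the alternatives run; the leads of Dll1 and Jag1 in large and of Hes1 in small intestine were within counting error of a class outside the endothelium. The gate at 4 times the library's share and the Atoh1 comparison over all cells were added after seeing the data. Neurog3 rests on 2 to 23 cells per single-cell library and the blood endothelial values on 36 and 86 cells.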
